A study of Mus musculus with 8 samples.

Results

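A set of chromatin regions that were accessible in a large share of nuclei was followed across the mouse hippocampus at postnatal day 21. Peaks of the 4 single-nucleus ATAC libraries were merged where they overlapped, and 154785 of the 253748 merged regions held a peak in every library. Member regions were chosen by their measured share of nuclei: at least 20% of the nuclei kept had a count there in each library. This rule selected 7162 regions, 4.63% of the shared regions. It used all nuclei together and no cell type, so the label that these regions are open in most cell types was checked against classes of nuclei.

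The study fed 8-week-old wild-type C57BL/6J dams, from before mating until the end of lactation, a diet with a moderate (MF, 2 mg/kg) or a high (HF, 20 mg/kg) amount of folic acid. Hippocampal nuclei of their male pups were profiled for RNA and accessibility at once, with 2 libraries per diet (MF1, MF2, HF1 and HF2). How many pups stood behind a library was not stated, so a p-value here refers to libraries and not to pups. After filtering, 2899, 2249, 3473 and 2897 nuclei remained in MF1, MF2, HF1 and HF2, with medians of 16404, 22670, 15748 and 18461 ATAC counts per nucleus. Libraries differed in makeup as well: astrocyte-like (AST-like) nuclei made up 7.73%, 14.3%, 19.1% and 14.3% of nuclei in the same order. Of the barcodes kept, 76 occurred in more than 1 library, and 15.3% of nuclei exceeded the doublet score used here. In a sum over all nuclei of a library, fewer nuclei of a type and less accessibility per nucleus cannot be told apart.

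ATAC-seq marks DNA that the Tn5 transposase can reach, mainly promoters, enhancers and insulators that are clear of nucleosomes. Promoters of housekeeping genes, which serve translation, respiration and other tasks that every cell performs, usually lie in CpG islands, where CpG pairs escape the depletion seen elsewhere in the genome. Such promoters are bound by widely expressed factors such as SP1, NRF1, NF-Y and ETS proteins and tend to be open in all cell types, whereas enhancers tend to be open in few. Counts per nucleus are sparse, so a share of nuclei with a count rises with sequencing depth and understates how often a region is open.

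The promoters and regions below show what the members looked like as sequence. Promoters run from 250 bases before to 50 bases after the RefSeq start and are written along the gene's strand. Regions are the central 300 bases on the plus strand (GRCm38.p6). Capitals mark matches to the short motifs searched on both strands: CCAAT (NF-Y), GGGCGGGG (SP and KLF factors), CCGGAAGT (ETS), CGCATGCG (NRF1) and TATAAA, a core promoter element. In the Sp1 promoter, a match of NF-Y, read on the other strand, overlaps one of SP and KLF factors. Gsk3b, Sp1 and Hjurp stood among the 10 members with the highest shares, Pmm2 among the 5 with the smallest range between classes when counts were scaled over all shared regions, and the region on chromosome 1 among the 5 leading members without an annotated start nearby. The last line shows the member with the highest share of all.
Gsk3b promoter, chr16:38088751-38089050, plus strand: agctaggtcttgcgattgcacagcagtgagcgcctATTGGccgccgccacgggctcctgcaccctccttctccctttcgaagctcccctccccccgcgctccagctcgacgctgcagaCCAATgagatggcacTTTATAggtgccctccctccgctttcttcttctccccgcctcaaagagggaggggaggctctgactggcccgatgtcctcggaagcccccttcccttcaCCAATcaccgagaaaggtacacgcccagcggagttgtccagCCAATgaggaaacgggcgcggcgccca
Sp1 promoter, chr15:102406066-102406365, plus strand: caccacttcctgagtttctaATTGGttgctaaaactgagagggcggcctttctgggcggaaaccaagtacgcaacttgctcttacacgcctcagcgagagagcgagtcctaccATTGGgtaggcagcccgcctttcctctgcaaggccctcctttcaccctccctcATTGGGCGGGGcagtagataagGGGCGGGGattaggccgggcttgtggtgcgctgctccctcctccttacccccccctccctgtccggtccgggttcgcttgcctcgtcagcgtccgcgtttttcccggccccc
Hjurp promoter, chr1:88277530-88277829, minus strand: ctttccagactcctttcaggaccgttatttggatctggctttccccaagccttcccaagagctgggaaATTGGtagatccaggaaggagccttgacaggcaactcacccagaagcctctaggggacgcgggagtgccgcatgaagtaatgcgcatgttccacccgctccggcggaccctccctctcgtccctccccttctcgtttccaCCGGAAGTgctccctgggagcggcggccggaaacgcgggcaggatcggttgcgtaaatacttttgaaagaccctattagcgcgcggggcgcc
Pmm2 promoter, chr16:8637457-8637756, plus strand: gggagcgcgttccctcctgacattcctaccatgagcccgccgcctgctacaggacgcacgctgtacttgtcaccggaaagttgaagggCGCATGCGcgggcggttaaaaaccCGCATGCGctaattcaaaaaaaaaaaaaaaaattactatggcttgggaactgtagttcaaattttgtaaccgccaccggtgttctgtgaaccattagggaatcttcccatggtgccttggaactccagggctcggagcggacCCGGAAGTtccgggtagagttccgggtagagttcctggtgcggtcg
Region without an annotated start, chr1:86487435-86487734: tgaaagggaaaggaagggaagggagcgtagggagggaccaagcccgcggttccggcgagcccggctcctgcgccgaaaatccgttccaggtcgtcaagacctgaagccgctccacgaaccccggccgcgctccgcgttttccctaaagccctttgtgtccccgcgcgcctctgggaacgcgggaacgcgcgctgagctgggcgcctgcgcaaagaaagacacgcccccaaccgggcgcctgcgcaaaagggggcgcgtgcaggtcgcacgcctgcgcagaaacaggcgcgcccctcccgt
Region with the highest share, chr2:98666923-98667222: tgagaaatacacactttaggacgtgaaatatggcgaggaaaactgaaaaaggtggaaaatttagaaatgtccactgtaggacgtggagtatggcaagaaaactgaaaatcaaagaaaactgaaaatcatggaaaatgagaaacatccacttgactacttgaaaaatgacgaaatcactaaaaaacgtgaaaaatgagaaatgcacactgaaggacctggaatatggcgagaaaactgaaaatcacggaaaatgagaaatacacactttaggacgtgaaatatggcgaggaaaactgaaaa

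The member regions were promoters in the main. An annotated transcript start (GENCODE M21) lay inside 6505 of the 7162 members (90.8%), against 6.89% of the other shared regions. Of the members with a start, 97.2% held the start of a protein-coding gene, 23.1% held starts on both strands and 12.8% held starts of at least 2 protein-coding genes. For the 10164 other shared regions with a start, the same shares were 73.5%, 6.67% and 2.32%. A further 256 members lay within 1000 bp of a start, 87 in exons, 123 in introns and 188 between genes. Member width was unremarkable, with a median of 906 bp against 926 bp for other shared regions. Chromosome X held 62 members, 2.38% of its shared regions, and chromosome 11 held 641, 6.61% of its shared regions.

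Members were rich in GC and CpG. The median GC content was 62.6% and the median ratio of observed to expected CpG 0.811, and 91.5% of members had a ratio over 0.6, a common bound for CpG islands. Other shared regions with a start had medians of 55.4% and 0.533, and 41.7% of them passed that bound. Other shared regions more than 1000 bp from a start had medians of 45.3% and 0.208, and 0.954% of them passed it. The 398 members more than 1000 bp from a start lay between these sets, at 57.1% GC and a CpG ratio of 0.657. Members with a start were thus richer in GC and CpG than the starts outside the set. The part of base composition in the shares was not tested.

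**Figure D1:**
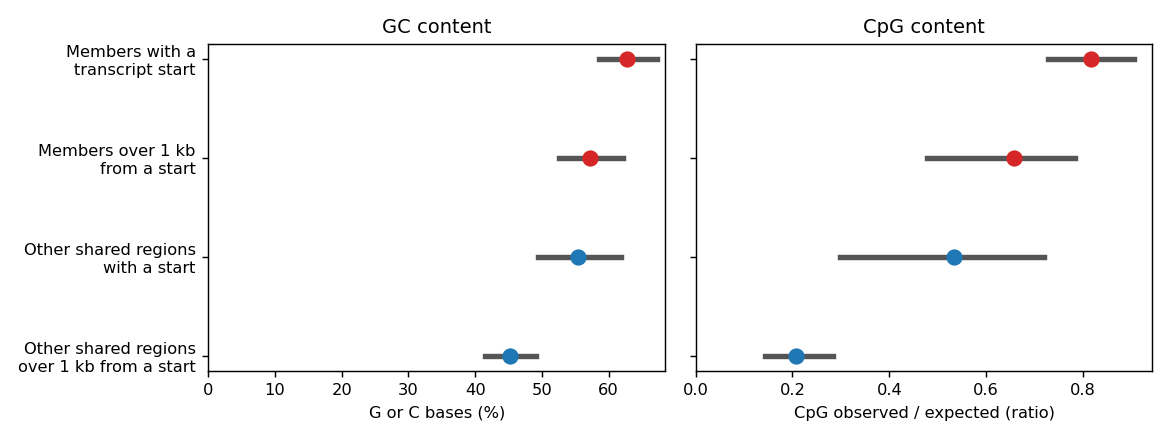
GC content (percent of bases, left) and ratio of observed to expected CpG (right) for 4 sets of regions. Points give the median and bars the range from the first to the third quartile over regions. Members with a start sit highest on both axes, with medians of 62.8% GC and a CpG ratio of 0.817, and other shared regions far from a start sit lowest, at 45.3% and 0.208.

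Short motifs of widely expressed factors followed the same split. In the central 300 bases, GGGCGGGG (SP and KLF factors) occurred in 40.9% of members against 5.03% of all shared regions, CCGGAAGT (ETS) in 9.25% against 0.917%, and CGCATGCG (NRF1, an activator of nuclear genes for mitochondria) in 5.63% against 0.532%. TGACGTCA (CREB and ATF) occurred in 4.71% against 0.638%, AAGATGGCG (YY1) in 5.31% against 0.498%, and TCTCGCGA, an element known from promoters without a TATA box, in 3.55% against 0.207%. CCAAT (NF-Y), a short word that is frequent in any DNA, was found in 41.3% against 34.7%. TATAAA went the other way, with 3.16% of members against 14.8% of all shared regions. The consensus of CTCF, which binds insulators, was found in 0.754% of members and 3.58% of all shared regions. Among regions with a start, it was found in 0.646% of members and 1.82% of the others. Over the 7229 RefSeq promoters whose start lay in a member, GGGCGGGG was found in 40.7%, CCGGAAGT in 10.4% and TATAAA in 4.51%, against 17.6%, 3.89% and 13.6% of all 32851 RefSeq promoters. A match is a description of these letters, not a bound site.

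The shares of nuclei varied widely among members. The median share was 30.3%, 34.5%, 30.4% and 30.9% in the order MF1, MF2, HF1 and HF2. The second, the library with most counts per nucleus, was highest for 6823 of the 7162 members. In 203 members at least 50% of the nuclei had a count in every library, and 2140 members had their smallest share between 20 and 25%. Just inside the threshold lay the promoters of Med15, a Mediator subunit, and Tnfaip8l1, and a region in an intron, 11702 bp from the start of Camta1, each with a smallest share of 20.007%. Just outside lay the promoters of Anks1b, Plxnc1 and Adgrb2, each at 19.986%. The values chose these regions, so no test applies to them.

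The highest shares belonged mostly to promoters, with some repeat-like or unannotated regions among them. Gsk3b encodes a kinase of glycogen metabolism and WNT signalling. Its region (chr16:38088613-38089641) had a count in 63.8% of nuclei in MF1, 70.0% in MF2, and 68.4% and 67.6% in HF1 and HF2. The Sp1 promoter, of a zinc finger factor that binds GC boxes, was at 62.5%, 69.8%, 67.2% and 66.1% in the same order. The Hjurp promoter, of the chaperone that loads the centromeric histone, was at 63.3%, 69.1%, 62.9% and 64.8%. Camta1, Khsrp and Rnf44 promoters stood beside them, between 60.8% and 69.1% over the libraries. In each of these promoters the share was highest in MF2, the library with most counts per nucleus, and shares are not scaled for depth. With counts scaled over all shared regions, HF1 was highest in each. At Gsk3b the levels were 126, 126, 166 and 131 CPM in MF1, MF2, HF1 and HF2.

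The single highest member lay in repeat-like DNA. The region chr2:98666651-98667494, at the annotated start of Gm10800, had a count in 96.5% of nuclei in MF1, 92.4% in MF2, and 92.2% and 91.4% in HF1 and HF2. Its GC content was 36.7%, and 86.4% of its bases were soft-masked as repeats in the reference. The region chr9:3024014-3024880, 467 bp from the start of Gm10718, was at 70.7%, 69.4%, 63.4% and 67.9%, with 97.3% of its bases masked, and 51.8% of its 15-base words occurred in the region on chromosome 2. Whether reads from other copies of such repeats were placed here was not tested. Only 8 of the 7159 members with sequence had more than 50% of their bases masked. Among the members without an annotated start nearby, regions on the unplaced scaffolds JH584304.1 and GL456216.1, which carry no annotation here, led, with shares from 55.8% to 81.01% over libraries. They were followed by chr8:69716388-69717343, 5664 bp from the start of Zfp869, at 50.9% to 57.7%, and chr1:86487116-86488053, 13457 bp from that of the pseudogene Rpl30-ps6, at 50.8% to 57.0%.

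Genes of shared cell machinery often had a start in a member. Of the 21458 protein-coding genes matched to the annotation, 6983 (32.5%) had a start in a member. Among ribosomal protein genes this held for 78 of 86 (90.7%), among chaperonin genes, which fold new proteins, for 10 of 11, among spliceosome genes for 39 of 45, and among aminoacyl-tRNA synthetases, which charge tRNAs, for 28 of 34. RNA polymerase II and III subunits followed with 18 of 23, translation initiation factors with 38 of 55, the proteasome with 30 of 44 and nuclear genes of oxidative phosphorylation with 59 of 91. The Rps19 promoter had a count in at least 52.1% of nuclei in every library, the shared promoter of the chaperonins Hspd1 and Hspe1 in at least 48.5%, the Eif5a promoter in at least 56.1% and the Polr2a promoter in at least 51.1%. Some members of these families stayed outside, such as Rps4x with a smallest share of 12.0%, Psmb11, a thymus proteasome subunit, with 2.82%, and Cox7a1 with 4.26%. These lists are described by counts and by no enrichment test.

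Several families of restricted use had few member starts. Olfactory receptors had 0 of 1132, keratins 0 of 53 and haemoglobins 0 of 8. Vomeronasal receptors had 1 of 329: the start of Vmn1r4 lay in a region that also holds the start of the nucleotidase gene Nt5c3. Ion channels and receptors of neurons were mostly outside as well, with 5 of 94 potassium channel genes, among them Kcnab2, Kcnh2, Kcnj2 and Kcnq3, and 4 of 26 glutamate receptor genes (Gria2, Grid1, Grik4 and Grin1). Gria2, an AMPA receptor subunit, had a smallest share of 26.5%. Of the marker genes used to name classes, 3 of 36 markers of excitatory neurons (EXC) had a member start: Wfs1, Nectin3 with a smallest share of 37.8% and Sox11 with 32.4%. Of the 24 AST markers 1 did, Slc1a2, a glutamate transporter, at 22.3%. None of the 22 inhibitory neuron (INH), 18 oligodendrocyte progenitor (OPC), 21 oligodendrocyte (ODC) and 22 microglial (MG) markers did. Immediate early genes, which respond to neuronal activity, lay above the 32.5% of all protein-coding genes with 16 of 21 (76.2%), and Jund was at 49.7% or more and Jun at 48.5% or more in every library. Histone genes had 36 of 97 (37.1%).

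Because the study varied folic acid, the genes of its metabolism and of DNA methylation were described as lists. Of 38 folate and one-carbon genes, 16 had a member start. Mat2a, which makes the methyl donor S-adenosylmethionine, was at 45.6% in MF1, 51.6% in MF2, and 49.7% and 48.6% in HF1 and HF2. Its shares in the HF libraries, which are not scaled for depth, lay between those of the 2 MF libraries. The liver enzymes Gnmt and Mat1a were lowest of those measured, at up to 3.16% and 1.51%. Of 13 DNA methylation genes, 11 had a member start. Mbd3 ranged from 51.2% to 60.9% and Dnmt1, the maintenance methyltransferase, from 38.2% to 46.3%, while Dnmt3b lay outside with 14.9% to 18.9%.

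The rule used RNA only to filter nuclei, by genes detected and mitochondrial UMIs, and not the level of single genes. Of the 6983 protein-coding genes with a member start, 97.1% reached a level of 1 CPM (UMI counts scaled to equal library totals) in every library, against 78.1% of the 6555 genes with a start in another shared region and 13.8% of the 7920 genes without either. Per kilobase of gene span, the median levels were 1.10, 0.344 and 0.00175 CPM. Among the 1000 genes with the highest CPM per kilobase, 666 had a member start, 276 a start in another shared region and 58 none. Ranked by CPM without regard to length, 530 of the leading 1000 genes had a member start. Lsamp, a neural adhesion gene and the highest protein-coding gene in CPM, had a smallest share of 17.9% at its start and was no member. No UMI was found for 6 genes with a member start, Exosc6, Asdurf, Pet117, Hist1h2ah, AL731706.1 and Gm49661.

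Nuclei were grouped into 6 classes by RNA, and the classes were called EXC-like, INH-like, AST-like, OPC-like, ODC-like and MG-like after markers. Other nuclei are in no class here: per library, 15.2% to 16.7% were in unnamed clusters, 8.00% to 9.77% in clusters whose median doublet score exceeded 0.05, 0.978% to 1.497% were Cajal-Retzius-like and 0.724% to 1.82% vascular-like. In 3607 members (50.4%), at least 20% of nuclei had a count in every library in all 6 classes, and in 5310 (74.1%) this held in at least 4 classes. It held in only 1 class for 199 members and in none for 7, so the label did not describe every member. By class, the threshold was met by 7022 members in INH-like nuclei, 6398 in EXC-like, 5625 in OPC-like, 5130 in ODC-like, 4971 in AST-like and 4553 in MG-like nuclei. Depth ran in the same order, from a median of 20513 ATAC counts per INH-like nucleus in HF1 to 11740 per MG-like nucleus in the same library. Outside the set, 6460 regions reached 20% in every library in at least 1 class.

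At equal numbers of fragments in peaks the order was another one. Nuclei were reduced to 2000 such fragments each, and those with fewer, 8 to 111 per class and library, were left out. Fragments outside peaks were not counted, so this share is tied to the part of peak counts that members held, given below. The median share of members was 6.71% in EXC-like, 7.66% in INH-like, 8.82% in AST-like, 9.03% in OPC-like, 9.42% in ODC-like and 10.8% in MG-like nuclei, as the mean of the 4 libraries. MG-like nuclei thus moved from the lowest number of members to the highest median. Other shared regions were at medians of 0.585%, 0.496%, 0.190%, 0.222%, 0.175% and 0.0423%. In MG-like nuclei the thinned medians were 10.96% in MF1, 10.6% in MF2, and 11.2% and 10.5% in HF1 and HF2, above those of EXC-like nuclei, 7.07%, 6.19%, 7.31% and 6.35%, in every library. The ranges of these classes did not overlap.

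**Figure D2:**
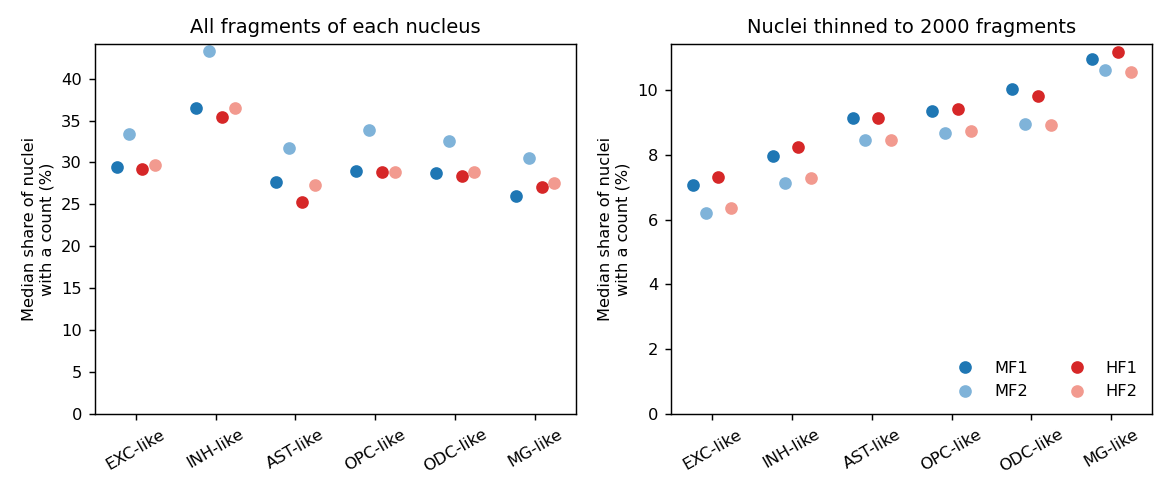
Median share of nuclei with a count (percent) over the 7162 member regions, by class of nuclei and library (MF1, MF2, HF1 and HF2, one point each). Left, all fragments: INH-like nuclei are highest, at 35.4% to 43.2%. Right, nuclei thinned to 2000 fragments in peaks: MG-like nuclei are highest, at 10.5% to 11.2%, and EXC-like nuclei lowest.

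The members took up 4.51% of the summed width of shared regions but a large part of the counts, and that part differed by class. Of all counts in peaks, members held 31.4% in MF1, 28.3% in MF2, and 33.6% and 28.9% in HF1 and HF2. In EXC-like nuclei the values were 28.7%, 25.2%, 30.3% and 25.9%, and in MG-like nuclei 45.8%, 45.6%, 48.0% and 45.0%. The mean over the 4 libraries rose from 27.5% ± 2.39 (SD, n = 4) in EXC-like to 31.5% ± 2.22 in INH-like, 37.2% ± 1.84 in AST-like, 38.1% ± 1.59 in OPC-like, 39.4% ± 2.41 in ODC-like and 46.1% ± 1.33 in MG-like nuclei. The ranges of AST-like, OPC-like and ODC-like nuclei overlapped, and within each library their order was the same, with AST-like lowest and ODC-like highest. AST-like, OPC-like, ODC-like and MG-like nuclei lay above EXC-like and INH-like nuclei in every library. Peaks were called per library on all nuclei together, and whether regions of less frequent classes were missed was not tested.

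**Figure D3:**
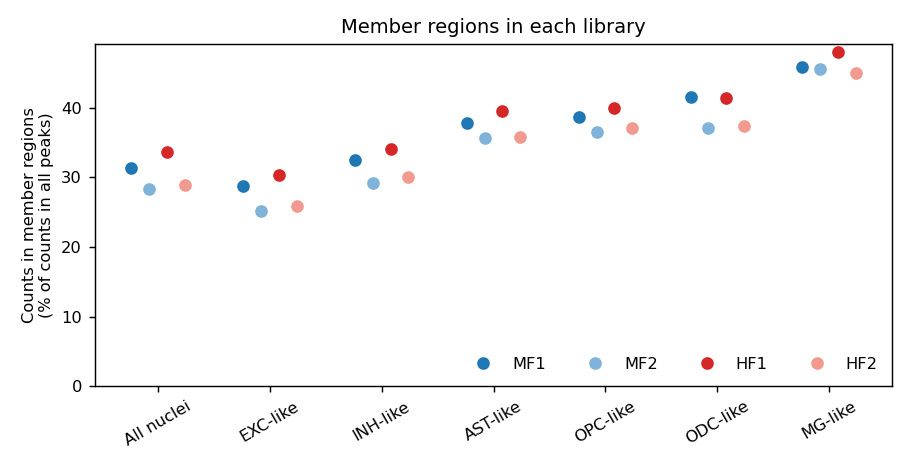
Counts in member regions as a percent of the counts in all peaks of a library, for all nuclei and for each class (one point per library). MG-like nuclei sit at 45.0% to 48.0% and EXC-like nuclei at 25.2% to 30.3%.

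Members differed less between classes than other regions, but the rule that chose them bears on this comparison. It used the same ATAC counts and asked for a high share over all nuclei. A region open only in a class with few nuclei could therefore not become a member. A smaller difference between classes was thus partly built into the set, and the values below are a description and no test of the label. The range of log2 accessibility over the 6 classes had a median of 1.02 for members, 3.01 for other shared regions with a start and 3.42 for other shared regions more than 1000 bp from one. The medians of summed counts behind these regions were 9130, 1898 and 659, and the part of sparse counts in the wider ranges was not tested. Members far from a start had a median range of 1.28. The smallest ranges, 0.190 to 0.225 log2 units, belonged to the promoters of Supv3l1, a mitochondrial RNA helicase, Zpbp2, Synj1, Nif3l1 and Pmm2, a phosphomannomutase whose region also holds the start of Tmem186. This order holds only for counts scaled over all shared regions. From the class contrasts fitted with scaling over members, the ranges of these 5 were 0.63 to 0.99 log2 units, above the median member at 0.49. At the Pmm2 promoter the mean level was 37.7 CPM in EXC-like, 41.9 in INH-like, 43.0 in AST-like, 41.2 in OPC-like, 38.6 in ODC-like and 37.2 in MG-like nuclei. Its share of nuclei, which is not scaled for depth, still ran from 39.4% in INH-like to 18.1% in MG-like nuclei. Pmm2 RNA ran from 20.8 CPM in INH-like to 36.4 CPM in OPC-like nuclei.

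Each class was then set against the mean of the other 5 (edgeR, adjusted p under 0.05 and at least 1.2-fold). The outcome depended on the scaling. Scaling over all shared regions asks how a member stands relative to all accessible DNA, and scaling over members how it stands relative to the other members. Between these, the median member moved by 0.65 log2 units in EXC-like nuclei, 0.42 in INH-like, -0.23 in AST-like, -0.24 in OPC-like, -0.21 in ODC-like and -0.39 in MG-like nuclei.

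In EXC-like nuclei, 350 members were higher and 6264 lower under the first scaling, where 51.1% and 22.3% of all regions tested were called higher and lower. Under the second, 1397 were higher and 1036 lower, against 64.5% and 9.85% of all regions. Naming classes by means plus 1 moved the first counts to 709 and 2779 in EXC-like nuclei (52.8% and 15.7% of all regions). It moved the number higher in ODC-like nuclei from 3165 to 1443 (19.0%). Naming by summed counts gave 538 higher in EXC-like nuclei (55.8%), leaving out nuclei over the doublet score 547 (52.4%), and a Leiden resolution of 1.6 gave 1901 higher in ODC-like nuclei (21.4%). In INH-like nuclei, 456 were higher and 5140 lower (all regions 47% and 11.5%), and under the second scaling 1298 and 565 (61.7% and 3.56%). AST-like nuclei had 3312 higher and 263 lower (32% and 9.49%), then 1105 and 890 (24.5% and 13.2%). OPC-like nuclei had 3348 higher and 90 lower (28.1% and 4.92%), then 948 and 468 (21.2% and 7.96%). The first of these OPC-like counts fell to 2134 without MF2 (23.2% of all regions), 2229 without HF1 (23.5%) and 1498 without nuclei over the doublet score (26.0%). In the last case 264 were lower (6.73%). ODC-like nuclei had 3165 higher and 424 lower (22.1% and 13.7%), then 1053 and 886 (17.3% and 17.3%). MG-like nuclei had 4748 higher and 831 lower (16.5% and 54.3%), then 1331 and 1649 (11.3% and 61.2%). By number of calls, members thus leaned lower in both neuronal classes and higher in the other 4 under the first scaling. The median log2 differences of members and of all regions were -0.64 and 0.83 in EXC-like, -0.41 and 0.83 in INH-like, and 0.24 and 0.35 in AST-like nuclei. They were 0.25 and 0.27 in OPC-like, 0.24 and -0.12 in ODC-like, and 0.40 and -2.36 in MG-like nuclei. In AST-like and OPC-like nuclei the median member thus stood no higher than the median region. The size of the lean depended on the method: RLE scaling over the same regions gave 1104 higher and 1425 lower in EXC-like (all regions 62.9% and 10.8%), 789 and 1891 in INH-like (56.4% and 5.8%), 1343 and 694 in AST-like (25.7% and 12.3%), 990 and 421 in OPC-like (21.5% and 7.73%), 1178 and 802 in ODC-like (17.6% and 16.9%), and 2400 and 1207 in MG-like nuclei (13% and 58.7%). Relative to the other members, which fixes their middle near 0, higher and lower calls were closer in number, and the lean turned in EXC-like, INH-like and MG-like nuclei.

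**Figure D4:**
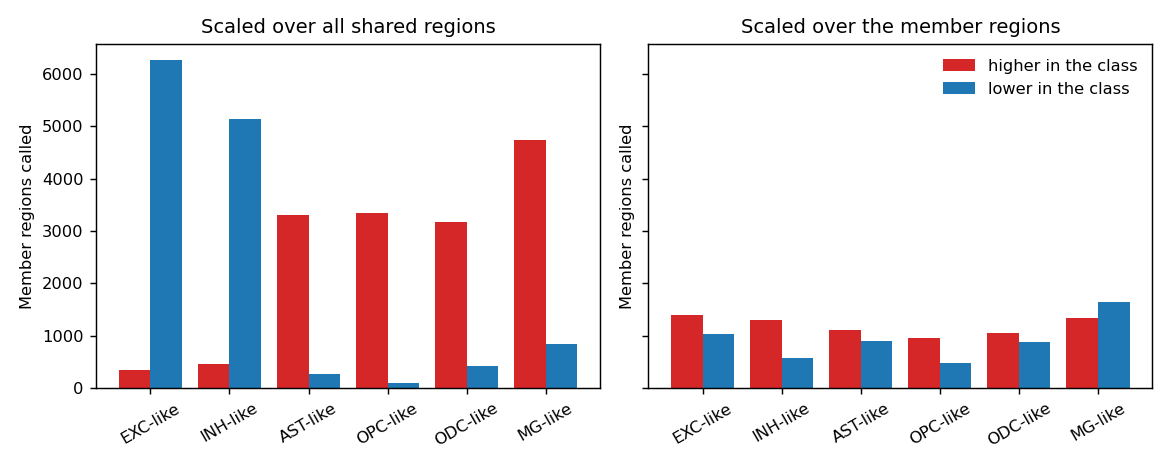
Number of member regions called higher or lower in each class than in the mean of the other 5, with counts scaled over all shared regions (left) or over the members (right). On the left, 6264 members are lower in EXC-like nuclei and 4748 higher in MG-like nuclei. On the right, the 2 directions are closer, with 1397 higher and 1036 lower in EXC-like nuclei.

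Calls made under both scalings numbered 350 higher and 1036 lower in EXC-like, 456 and 565 in INH-like, 1105 and 263 in AST-like, 948 and 90 in OPC-like, 1053 and 424 in ODC-like, and 1331 and 831 in MG-like nuclei. Of all regions tested, 51.1% and 9.85% were so called in EXC-like, 47% and 3.56% in INH-like, 24.5% and 9.49% in AST-like, 21.2% and 4.92% in OPC-like, 17.3% and 13.7% in ODC-like, and 11.3% and 54.3% in MG-like nuclei. In each class and direction this is the smaller of the 2 counts given above. The change of scaling moved the regions of a class by nearly the same amount, so this overlap followed from the shift and is no independent check. In EXC-like nuclei, 499 members were lower under the first scaling and higher under the second. At least 1 class was called in the same direction under both for 3661 of the 7162 members, against 91.7% of all regions tested. Since the rule chose regions by their share over all nuclei, a member that is low in one class had to be high in another, and these counts are read beside the shares of all regions only.

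The members furthest above the other classes in neurons lay both at starts and far from them. In EXC-like nuclei the leading members were chr5:131794197-131795110, in an intron 85159 bp from the start of 4930563F08Rik, chr14:24578430-24579366 between genes, and the promoter of Lingo1, a brain membrane protein that restrains myelination. The Lingo1 region had a count in 36.3% of EXC-like nuclei in MF1, 39.5% in MF2, and 34.1% and 32.5% in HF1 and HF2, and its level was 3.01 ± 0.15 log2 units (SE) above the other classes. The region passed the 20% threshold through its shares in neurons, so this is a description. Its mean share was 29.4% in INH-like and 5.59% or less in the other classes. Lingo1 RNA went the same way, with 97.8 CPM in EXC-like and 50.5 CPM in INH-like nuclei and 15.3 to 43.8 CPM elsewhere. In INH-like nuclei the promoters of Fbxl2 and Igfbp3, a carrier of insulin-like growth factors, and a region 358 bp from the start of Nefh, a neurofilament subunit, led with 2.94 ± 0.21, 2.74 ± 0.16 and 2.70 ± 0.14 log2 units. Fbxl2 had no count in MG-like nuclei, which enter the mean of the other classes, so the size and SE of its difference are not firm.

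The members furthest below the other classes in EXC-like nuclei were the promoters of Phactr4, Rassf2 and Hivep1, at -3.12 ± 0.10, -2.76 ± 0.09 and -2.65 ± 0.09 log2 units. The Rassf2 promoter had a mean share of 10.1% in EXC-like nuclei and 31.7% to 40.2% in the 4 glial classes, and its RNA was at 1.33 CPM in EXC-like and 202 CPM in MG-like nuclei. In INH-like nuclei the leading lower members were the promoters of Crnde, Gab1, an adaptor of growth factor receptors, and 1810059C17Rik. The Gab1 promoter was at 17.7% of INH-like and 32.0% of ODC-like nuclei, and its RNA at 12.2 CPM in INH-like and 694 CPM in ODC-like nuclei. Hivep1 RNA was higher in AST-like and MG-like nuclei, at 66.1 and 55.2 CPM, than in EXC-like nuclei, at 32.4 CPM, but was at 31.8 CPM in OPC-like and 12.3 CPM in ODC-like nuclei, where the promoter was at 41.5% and 38.4%.

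Some leading members of the glial classes were shared between classes. In AST-like nuclei, chr12:51117791-51118713, 15989 bp from the start of Gm7172, had a mean share of 47.1%, against 31.6% in EXC-like and 1.67% in ODC-like nuclei, and lay 4.23 ± 0.12 log2 units above the other classes. The promoter of 4930430O22Rik was at 55.1% of AST-like nuclei and 7.83% of ODC-like nuclei, without any UMI of that gene in any class. The promoter of Dab1, the reelin adaptor, had near equal shares of 25.5% to 27.3% in EXC-like, INH-like, AST-like and OPC-like nuclei, 4.91% in ODC-like nuclei and no count in MG-like nuclei. Lowest against the other classes in AST-like nuclei was the shared start of Tppp, a tubulin-binding protein, and Gm15912, at 4.19% of AST-like and 38.5% of INH-like nuclei, and Tppp RNA was at 13.4 CPM in AST-like and 189 CPM in ODC-like nuclei. In OPC-like nuclei the starts of Igfbp3, Unc5c and Dab1 led, at 3.38 ± 0.15, 3.35 ± 0.17 and 3.22 ± 0.19 log2 units, and Igfbp3 RNA was highest there with 15.8 CPM. Unc5c and Dab1 had no count in MG-like nuclei, which enter the mean of the other classes. The size and SE of their differences are therefore not firm, and their shares in OPC-like nuclei were close to those in INH-like nuclei. Dab1 RNA was at 480 CPM in OPC-like nuclei, below the 3575 CPM in EXC-like, 1609 CPM in INH-like and 1321 CPM in AST-like nuclei. In ODC-like nuclei the promoter of Tubb4a, a tubulin of myelinating cells, was at 50.9% and 2.95 ± 0.10 log2 units above the others, with RNA of 721 CPM against 42.7 to 238 CPM elsewhere. The shared start of Unc5c, a netrin receptor, and Gm15688 was at 35.9% of INH-like, 35.3% of OPC-like and 32.0% of ODC-like nuclei, and Unc5c RNA was highest in ODC-like nuclei with 3128 CPM. Furthest below the other classes in ODC-like nuclei were a region in an intron, 44503 bp from the start of Ykt6, and a region 50256 bp from the start of Camk2n1, at 1.44% and 1.38% of nuclei. The promoter of Adrb1, a beta-adrenergic receptor, followed at 2.82% against 36.9% of MG-like nuclei, with RNA of 0.809 and 78.5 CPM.

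Members with few counts in a class were most frequent in MG-like nuclei. In these, 345 members had a count in under 5% of nuclei in every library, against 22 in ODC-like, 10 in AST-like, 2 in OPC-like and none in EXC-like or INH-like nuclei. These shares were not thinned, and MG-like nuclei had the fewest ATAC counts per nucleus. Their median member share at equal fragments in peaks was the highest. MG-like nuclei made up 4.80% to 8.90% of nuclei per library and ODC-like nuclei 4.09% to 6.08%. The part of depth and of class size in these counts was not tested. For 7 members none of the 692 MG-like nuclei had a count, which allows a share of up to 0.434%. These were the starts of Unc5c, Kcnq3, a potassium channel, Lrrn1, Dab1, Fbxl2 and C130071C03Rik, and the region chr14:24578430-24579366. Relative to a floor of 3 counts over the 4 libraries, their levels in MG-like nuclei were at least 62.4-fold to at least 93.9-fold lower than the mean of the other classes. The RNA of Unc5c, Kcnq3, Lrrn1, Dab1 and Fbxl2 also had its lowest mean in MG-like nuclei. Kcnq3 was at 20.2 CPM there and at 472 to 883 CPM in the other 5 classes, and Unc5c at 23.5 CPM and 138 to 3128 CPM. At a depth of 692 nuclei, no accessibility of these 7 members was detectable in MG-like nuclei.

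**Figure D5:**
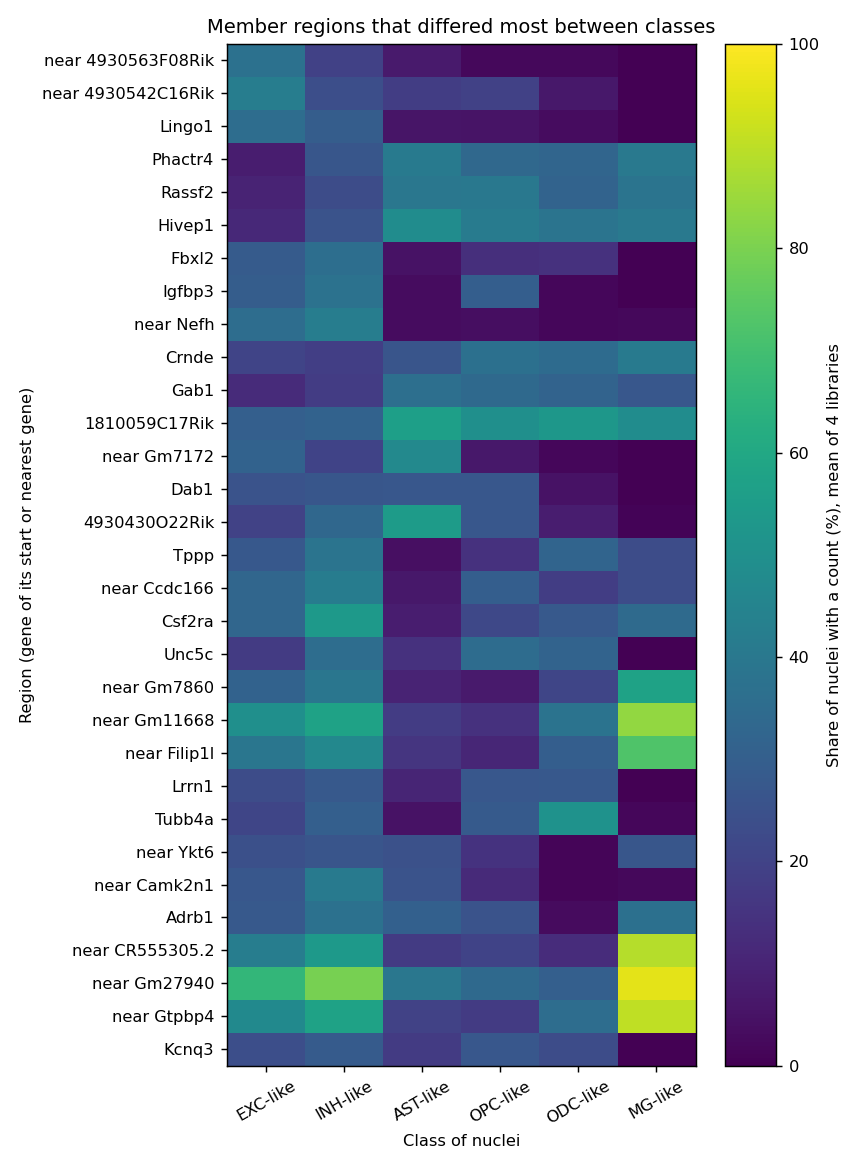
Share of nuclei with a count (percent, mean of 4 libraries) in each class for the 31 members furthest above or below the other classes in some class, named by the gene of their start or the nearest gene. The promoters of Unc5c, Lrrn1, Dab1, Fbxl2 and Kcnq3 are at 0% in MG-like nuclei, and the regions near Gm27940, Gtpbp4 and CR555305.2 reach 89.1% to 95.9% there.

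Class differences in RNA were set beside those in accessibility. For 5290 genes with a single member start and sufficient RNA, Spearman's rho between the class difference in accessibility and that in RNA was 0.38 in EXC-like, 0.43 in INH-like, 0.40 in AST-like, 0.31 in OPC-like, 0.42 in ODC-like and 0.57 in MG-like nuclei. These are across genes of the same libraries, which are not independent replicates. In MG-like nuclei, 422 of these genes had a promoter at least 2-fold under the median member, and their median RNA difference was -2.30 log2 units against 0.28 over all 5290. The 30 genes at least 2-fold over had a median RNA difference of 3.31. In EXC-like nuclei the corresponding medians were -1.21 for 49 genes and 1.24 for 196 genes, against -0.11 for all.

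The members furthest above the other classes in MG-like nuclei were chr19:61266427-61267345, 8638 bp from the start of CR555305.2, a region 238 bp from the start of Gm27940, and chr13:9011377-9012256 in an intron 15294 bp from the start of Gtpbp4. Of the bases of the last, 63.4% were soft-masked as repeats. It had a count in 94.6%, 88.0%, 88.1% and 90.6% of MG-like nuclei in MF1, MF2, HF1 and HF2. Over all nuclei its shares were 63.2%, 38.0%, 45.7% and 36.5%, and within INH-like nuclei 82.2%, 48.0%, 61.4% and 39.6%. MF1 stood far above the other libraries there. Over all members, the highest and the lowest library share differed by a median ratio of 1.18.

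This led to a search, made after these values were seen, for members whose highest and lowest library shares differed by over 1.5 times. There were 14, and 9 of them were highest in MF1. All 9 had the same order of libraries, MF1, HF1, MF2 and HF2, which 24 of the 296 members highest in MF1 showed, and all 9 had their highest level in MG-like nuclei. Their mean shares were 57.7% to 90.3% in MG-like, 39.1% to 57.8% in INH-like, 31.5% to 49.9% in EXC-like and 7.35% to 19.4% in OPC-like nuclei. MF1 was highest within EXC-like, within INH-like and within MG-like nuclei for each of the 9. MF1 also held the largest share of MG-like nuclei, 8.90% against 4.80% to 5.14% in the other libraries. The 9 regions lay on chromosomes 3, 5, 9, 11, 13, 16 and 17, no pair shared more than 0.502% of 15-base words, and only 1 held an annotated start, that of the small RNA gene Gm23935. The 2 members at chr17:39842985-39843791 and chr17:39847796-39848651, at Gm26917 and AY036118, a locus known for ribosomal RNA sequence, had the same order: 81.9%, 67.3%, 58.3% and 56.1% for the first in MF1, HF1, MF2 and HF2. Both were highest in MG-like nuclei, at 96.3% and 94.3%. The part of library preparation or of the makeup of the nuclei in this order was not tested.

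The diets were compared on counts summed per library. No member was called between HF and MF in all nuclei (edgeR, adjusted p under 0.05), and 0.0162% of all shared regions were. The smallest adjusted p of a member was 0.933, and 4 members (0.0559%) had an unadjusted p under 0.05, against 4.36% of all shared regions. DESeq2 called 0 members and 3 of all regions, and gave 14 members (0.195%) with an unadjusted p under 0.05, against 1.44% of all regions. The median member was 0.11 log2 units higher in HF, against 0.0011 for all shared regions, and the median SE of a member was 0.22. The sign of the median turned with 1 library: it was -0.05 without HF1 and 0.25 without HF2. The part of counts held by members was 29.9% ± 2.15 (SD, n = 2) in MF and 31.2% ± 3.35 in HF, a difference smaller than the spread within either diet (exact permutation test, two-sided, p = 0.667, where the smallest p possible is 0.3333; adjusted p = 0.933 over 7 such comparisons). Without MF2 or without HF1 the difference changed sign, from 1.37 points to -0.157 and -1.003 points.

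Within classes no member was called by diet in EXC-like, INH-like, AST-like, OPC-like, ODC-like or MG-like nuclei, where 0.006%, 0%, 0%, 0%, 0.00249% and 0.00752% of all regions tested were called (edgeR). The numbers of members with an unadjusted p under 0.05 were 12, 176, 201, 259, 275 and 275 in that order. As shares of the members tested these were 0.168%, 2.46%, 2.81%, 3.62%, 3.85% and 4.02%, against 3.61%, 3.90%, 3.16%, 3.93%, 4.07% and 4.07% of all regions tested. DESeq2 called none either, with 12, 59, 88, 61, 108 and 124 members under 0.05. These were 0.168%, 0.824%, 1.23%, 0.852%, 1.51% and 1.81% of members, against 0.808%, 0.848%, 0.824%, 0.918%, 1.69% and 1.67% of all regions. The median difference of members lay between 0.03 log2 units in ODC-like and 0.08 in EXC-like nuclei, with median SEs of 0.18 to 0.23. Calls appeared under other settings. With counts scaled over members, 29 members were called in all nuclei, of 53 calls among all 154785 regions. Of the members, 3 were higher and 26 lower in HF. The 26 held the regions at Gm26917 and AY036118, the repeat-like regions at Gm10800 and near Gm10718, and the 9 MF1-high regions above. Without HF1, 12 members were called, of 81 calls in all. All 12 were lower in HF, and 9 of these were the same regions. Within classes, up to 13 members of 56 called regions were called in ODC-like, 12 of 58 in INH-like and 10 of 39 in MG-like nuclei without MF2, 10 of 40 in EXC-like nuclei without HF1, and 5 of 10 in AST-like and 4 of 12 in OPC-like nuclei without HF2. The regions tested in these fits numbered 49479, 113891, 30220, 151923, 81569 and 63211. At the start shared by Cep170, a centrosomal protein, and Sdccag8, the shares were 49.6% in MF1, 40.5% in MF2, and 54.2% and 52.1% in HF1 and HF2. There MF2 stood below the other 3 libraries and both HF libraries above both MF libraries. With counts scaled over members the difference was 0.60 ± 0.06 log2 units (SE) and was called (edgeR, adjusted p = 9.19e-22). The median SE of a member was 0.08 in that fit, against 0.22 with the first scaling. An SE of 0.06 is small beside the gap between MF1 and MF2, so this p-value may understate the spread between libraries. The same limit holds for the other calls of that fit. Without HF2 the difference was 0.88 log2 units. Over all 4 libraries it was not called with the first scaling when replicate numbers were left out of the fit, nor by DESeq2. This region was chosen after its values were seen.

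Of 7470 genes with a member start tested for RNA, edgeR called none at an adjusted p under 0.05 and at least 1.2-fold, as 0% of all 18373 genes tested were called. An unadjusted p under 0.05 was found for 16 of them (0.214%), against 1.08% of all genes. DESeq2 called none and gave 5 under 0.05 (0.0669%), against 0.425% of all genes. Their median difference was -0.01 log2 units. The medians of lists that follow cover all genes of a list that were tested, with or without a member start. Ribosomal protein genes had a median of -0.22 log2 units in HF against MF, folate and one-carbon genes 0.02 and DNA methylation genes 0.02, with none called in any of these lists. Marker genes, nearly all without a member start, had medians of -0.07 for EXC, -0.10 for INH, 0.41 for AST, 0.08 for OPC, 0.26 for ODC and -0.50 for MG, again without a call. The 4 haemoglobin genes tested, none with a member start, had a median of -1.35, also without a call. The share of AST-like nuclei was 7.73% in MF1 and 14.3% to 19.1% in the other libraries. That of MG-like nuclei was 8.90% in MF1 and 4.80% to 5.14% in the others. The part of this makeup in the medians was not tested. Mat2a RNA differed by 0.05 ± 0.18 log2 units (SE). Without MF2, 4 of 7496 genes with a member start were called, against 110 of all 19043 genes tested.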

How the data were processed

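Nuclei of 4 hippocampal libraries, 2 per diet, were profiled with the single-nucleus multiome assay. The authors processed the reads with Cell Ranger ARC 2.0.1 against mm10. The deposited files hold UMI counts per gene and ATAC counts (transposition sites) per peak, with peaks called in each library, and no normalization. Of 14297 nuclei, 11518 were kept, with limits of 500 and 7000 genes, 1000 and 70000 ATAC counts, and mitochondrial UMIs under 2%. The nuclei kept held 54182160 to 64146921 ATAC counts and 20151562 to 29243072 UMIs per library. Peaks overlapping by 1 bp or more were merged.

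Nuclei were clustered on RNA with Scanpy 1.11.5 (3000 variable genes, 20 components, Leiden resolution 0.8) and a cluster was named from fixed markers where at least 3 stood among its 50 leading genes. Of 3 ways to rank these genes, tried before any test of diet or class, the last was kept, and the others are alternatives. Single doublets were not removed in the main analysis. A score of 0.05, chosen after the scores were seen, marks them for an alternative, and clusters whose median exceeded it were left out of the classes. Counts were summed per library, and per class and library. The quasi-likelihood test of edgeR 4.0.16 (R 4.3.3) was used with Benjamini-Hochberg adjustment over all features tested. Diet was called at an adjusted p under 0.05, classes and RNA also at 1.2-fold. Classes were fitted with library as a term. DESeq2 1.42.0, other scalings, thresholds, left-out libraries and a replicate block were alternatives. The scripts were tested on simulated data. Members and lists were chosen with earlier results of these data known.

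Named regions were the 10 members with the highest smallest share, 3 on each side of the threshold, the 5 leading members without an annotated start inside or within 1000 bp, the 3 furthest above and the 3 furthest below in each class, and the 5 with the smallest range. List genes were named for the highest and lowest shares, and others are named where a count is 5 or fewer. The regions high in MF1 and the start of Cep170 and Sdccag8 were chosen after their values were seen. Some genes that this rule names are not reported here. Regions at GRCm38.p6 coordinates were matched to GENCODE M21 starts and RefSeq promoters. The 3 members on unplaced scaffolds have no sequence properties here. Levels of RNA are CPM of all UMIs, and those of regions CPM of the counts in shared regions. Intervals and limits for zero counts cover counting error only.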

Additional observations from a re-analysis of the deposited data

How the results depend on the processing

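The number of members depended on the threshold and on depth: 3351 regions passed a threshold of 30%, and 13 passed 20% once nuclei were thinned to equal fragments in peaks. Class calls are given as members higher and lower in EXC-like, INH-like, AST-like, OPC-like, ODC-like and MG-like nuclei, in that order. DESeq2 gave 1107 and 1424, 785 and 1885, 1339 and 688, 991 and 423, 1176 and 817, and 2391 higher in MG-like nuclei, where 63.6% and 13.9%, 56.9% and 6.65%, 26.0% and 18.8%, 22.7% and 13.1%, 19.1% and 26.5%, and 13.4% of all regions were called. RLE scaling gave 1104 and 1425, 789 and 1891, 1343 and 694, 990 and 421, 1178 and 802, and 2400 higher in MG-like nuclei. Scaling over members gave 1397 and 1036, 1298 and 565, 1105 and 890, 948 and 468, 1053 and 886, and 1331 and 1649, and 29 calls by diet in all nuclei. A minimum of 2-fold gave 120 and 722, 132 and 63, 279 and 38, 311 and 12, 171 and 120, and 264 and 539, as fewer members pass a higher fold (all regions 46.8% and 12.1%, 42.03% and 3.96%, 25.1% and 7.95%, 21.6% and 4.22%, 16.8% and 12.6%, and 10.4% and 52.9%). Naming by summed counts gave 538 higher in EXC-like nuclei (55.8% of all regions) and 1355 and 535 in OPC-like nuclei (21.6% and 12.3%), and naming by means plus 1 gave 709 and 2779 in EXC-like (52.8% and 15.7%), 1108 and 295 in OPC-like (23.8% and 5.30%) and 1443 and 695 in ODC-like nuclei (19.01% and 16.4%). A Leiden resolution of 1.6 gave 1317 and 327 in OPC-like nuclei (23.8% and 7.84%) and 1901 higher in ODC-like nuclei (21.4%). Without nuclei over the doublet score, 547 were higher in EXC-like nuclei (52.4%), and 1498 and 264 were called in OPC-like nuclei (26.001% and 6.73%). Without 1 library, 2134 to 3211 were higher in OPC-like nuclei (23.1% to 25.4% of all regions). The causes of these changes were not tested beyond the fold minimum.

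Without 1 library, calls of members by diet ranged from 0 to 12 in all nuclei, 0 to 10 in EXC-like, 0 to 12 in INH-like, 1 to 5 in AST-like, 1 to 4 in OPC-like, 1 to 13 in ODC-like and 0 to 10 in MG-like nuclei, and from 0 to 4 for genes with a member start. Calls among all regions ranged from 27 to 762 in all nuclei and, by class in the same order, 3 to 62, 0 to 58, 5 to 64, 3 to 12, 4 to 56 and 6 to 39, and from 0 to 110 among all genes. The 762 regions called without MF2 held no member. The member part of counts differed by -1.003 to 3.73 points, with -1.003 without HF1 and -0.157 without MF2. A lone library was then assumed to vary like the other group.

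The replicate numbers are shared between diets, but no source says that they mark a batch, and there are only 2 pairs. The correlation of deviations of same-numbered libraries was 0.102 over all shared regions and 0.175 over members. A replicate block gave 1 called member in all nuclei, 1 in EXC-like, 8 in INH-like, 0 in AST-like, 2 in OPC-like, 8 in ODC-like and 0 in MG-like nuclei, of 89, 17, 10, 0, 3, 15 and 4 regions called in all, 0 of 21 called genes, and a mean difference of 1.37 points in the member part of counts. The member called in all nuclei was the start of Cep170 and Sdccag8 (edgeR, adjusted p = 0.00348).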
